A study of Homo sapiens and Mus musculus with 18 samples.

Results

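The genes described here are MEIS1, MEIS2 and MEIS3, PBX2, PBX3 and PBX4, and NR2F1 and NR2F2, together with the mouse genes of the same names. They were taken by symbol from the deposited count tables, in which their identifiers were looked up in GENCODE. The 8 human genes are 8 of 44910 in the human table, the 8 mouse genes are 8 of 29720 in the mouse table, and together they make up 16 of 74630 rows. All 16 passed the filter on low counts, and values of every one of them are given below.

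MEIS and PBX proteins are homeodomain transcription factors of the TALE class, named for an extra loop in the homeodomain. They bind DNA as dimers with each other and with HOX proteins, which raises the selectivity of HOX binding along the body axis. Many Meis genes and both Nr2f genes respond to retinoic acid (RA) in embryonic cells, and MEIS2 and NR2F2 are broadly expressed in the mesenchyme of the embryo. NR2F1 and NR2F2 (COUP-TFI and COUP-TFII) are not homeodomain proteins but orphan nuclear receptors. The count tables hold transcript levels only, so binding between these proteins and HOX proteins was not measured.

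Polyadenylated RNA was sequenced from 18 samples in 9 groups of 2 biological replicates. In human, ESCs of the line H9 were taken in the naïve and in the primed state, ESCs of the line RUES2-GLR in the primed state, and RA-gastruloids at 24 h (early) and at 120 h (late). H9 is a human embryonic stem cell line, and its naïve cells had been chemically reset and kept on irradiated mouse embryonic fibroblast (MEF) feeders, which were then removed by passaging. RUES2-GLR is a germ layer reporter line, and all RA-gastruloids came from it. The reporter cells were treated with the WNT agonist CHIR99021 and then with CHIR99021 and RA before aggregation, so that the early RA-gastruloids had already met RA. RA was added again, and Matrigel for the first time, between the early and the late sample. The mouse groups were naïve ESCs, EpiLCs (epiblast-like cells made with activin A and bFGF), early gastruloids and late gastruloids, all from the line E14Tg2a. The mouse gastruloids were made directly from naïve ESCs, with a CHIR99021 pulse and no added RA, so EpiLCs are a stage beside them and not their source. Each group rests on 1 line, and its 2 replicates were collected in 1 batch. The p-values therefore rest on the spread between such replicates, estimated over all groups of a fit together, and not on that between lines or batches. Each library is bulk RNA, in which fewer cells of a type and less RNA per cell cannot be told apart.

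Total counts ranged from 3681739 to 38771193 in the human libraries and from 6487157 to 20052505 in the mouse libraries, the lowest being primed RUES2-GLR replicate 2. Levels are given in CPM (counts scaled to the library total after TMM) for each replicate in turn. Whether groups overlap is read from their 2 replicates, and the share of all genes that separate in this way was not counted. A group in which a gene had no count allows up to 3 counts over its 2 libraries, which is 0.0533 CPM in primed H9 cells and 0.195 CPM in primed RUES2-GLR cells. These limits cover counting error only. Markers of the stages were checked at the RA-gastruloid stages. Summed over TBXT, TBX6, MIXL1, EOMES and MSGN1, primitive streak markers stood at 803 and 847 CPM in early RA-gastruloids and at 12.9 and 11.5 CPM in late ones. The 5 somite markers (MEOX1, MEOX2, TCF15, PAX1, UNCX) summed to 7.98 and 6.16 CPM in early and to 180 and 144 CPM in late RA-gastruloids.

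How far reads can tell these genes apart depends on their coding sequences. The TALE loop is the feature that MEIS and PBX proteins share, and the 57 coding bases around its proline-tyrosine-proline codons, in capitals, are given for the 6 human genes from GENCODE on GRCh38. They lie in exons 8 and 9 of the MEIS genes (MEIS1 at chr2:66512274-66547978 on the plus strand, MEIS2 at chr15:36950365-37036834 and MEIS3 at chr19:47407393-47409119, both on the minus strand) and in exon 5 of the PBX genes (PBX2 at chr6:32187677-32187733 on the minus strand, PBX3 at chr9:125935521-125935577 on the plus strand, PBX4 at chr19:19569479-19569535 on the minus strand).
MEIS1: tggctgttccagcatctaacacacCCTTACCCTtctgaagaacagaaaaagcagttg
MEIS2: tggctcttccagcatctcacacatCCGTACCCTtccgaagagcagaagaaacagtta
MEIS3: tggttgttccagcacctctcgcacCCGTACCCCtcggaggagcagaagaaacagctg
PBX2: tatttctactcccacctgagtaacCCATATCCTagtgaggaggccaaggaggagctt
PBX3: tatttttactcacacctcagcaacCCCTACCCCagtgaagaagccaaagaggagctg
PBX4: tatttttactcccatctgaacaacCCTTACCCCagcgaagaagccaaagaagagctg
The capitals encode the same residues in all 6 genes, but the bases, in the loop and around it, differ from gene to gene even within a family. The longest run that any pair of human MEIS genes had in common was 20 bases (MEIS1 with MEIS2, and MEIS2 with MEIS3), and among PBX2, PBX3 and PBX4 it was 28 bases (PBX2 with PBX4).

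The next pair of sequences compares the nuclear receptors over 131 coding bases in their first exons that human and mouse NR2F2 share without a difference. The human stretch of NR2F2 lies at chr15:96332355-96332485 and that of NR2F1 at chr5:93585294-93585424, both on the plus strand of GRCh38, and bases that differ between them are in capitals.
NR2F2: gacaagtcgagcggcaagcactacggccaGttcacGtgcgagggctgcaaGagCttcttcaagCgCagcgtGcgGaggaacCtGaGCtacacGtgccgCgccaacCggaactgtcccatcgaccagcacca
NR2F1: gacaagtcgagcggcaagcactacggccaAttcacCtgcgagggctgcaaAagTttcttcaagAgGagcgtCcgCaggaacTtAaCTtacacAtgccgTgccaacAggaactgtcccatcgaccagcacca
They differ at 15 of the 131 bases (88.5% identical), and the longest run shared by the human paralogues anywhere in their coding sequences was 35 bases. None of the 50-base windows of human NR2F1 occurred in human NR2F2. Windows of 50 bases were also looked up in all GENCODE transcripts on both strands, since some libraries were read at that length. For MEIS2, PBX3, PBX4 and NR2F2 in human, and Meis2, Meis3, Pbx2, Pbx3 and Pbx4 in mouse, no window occurred in another gene. For PBX2, 48.1% of windows also occurred in the pseudogene PBX2P1, and for MEIS3 11.8% occurred in MEIS3P1 or MEIS3P2, so the levels of PBX2 and MEIS3 carry that uncertainty. In mouse, 10.1% of the windows of Nr2f1 and 15.9% of those of Nr2f2 occurred in each other or in an antisense gene. MEIS1 shared 13.1% of its exon bases with the antisense gene MEIS1-AS2, NR2F1 shared 3.61% with NR2F1-AS1, and Nr2f2 shared 7.46% with B130024G19Rik. Meis1 shared 9.77% with Gm37818 and 8.51% with Gm16140, Nr2f1 shared 2.42% with A830082K12Rik, and Pbx2 shared 6.24% with Gpsm3. Gm37818 and Gpsm3 lie on the same strand as Meis1 and Pbx2, and the other overlapping genes lie on the opposite strand. The counting, under default parameters, used no strand, so reads in any of these shared bases cannot be given to 1 gene.

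**Figure D1:**
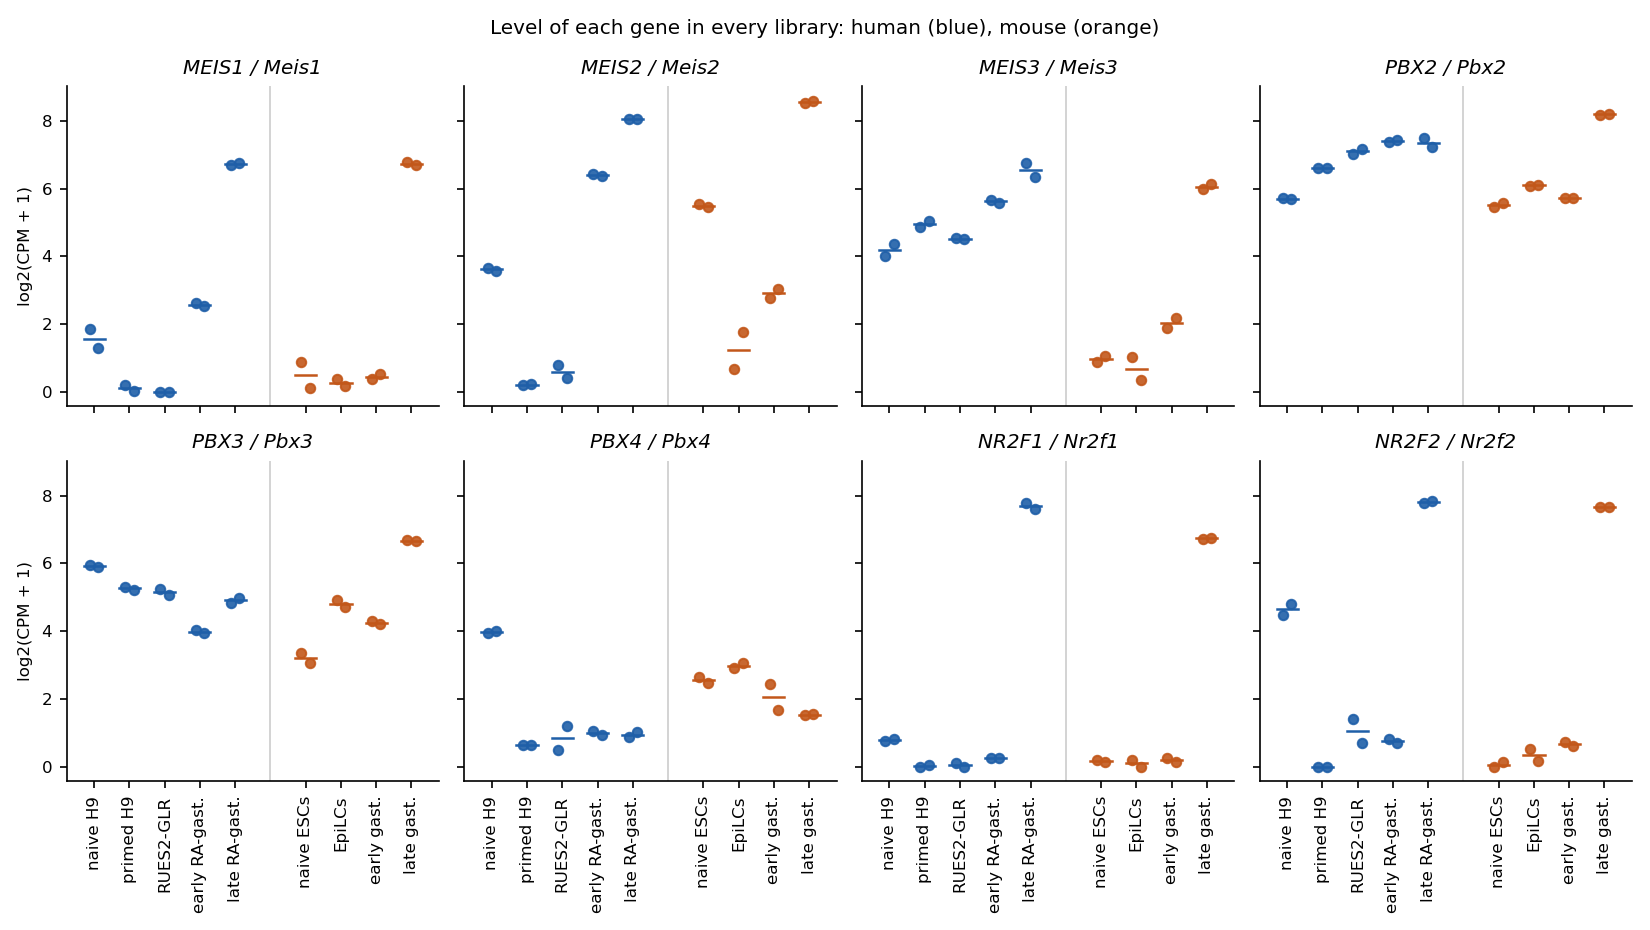
Level of each of the 8 genes in every library, as log2(CPM + 1), with the 5 human groups in blue and the 4 mouse groups in orange; points are the 2 replicates of a group and the short line is their mean. MEIS1, NR2F1 and NR2F2 are highest in late gastruloids of both species, at over 100 CPM, while MEIS2 is already at 81.5 to 85.3 CPM in early RA-gastruloids but at 5.88 to 7.21 CPM in early mouse gastruloids.

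MEIS1 rose at both gastruloid steps in human and passed the test at the last step in mouse. In human, MEIS1 was at 2.61 and 1.43 CPM in naïve H9 ESCs, 0.140 and 0.0238 CPM in primed H9 cells (2 and 1 counts), and 0 in both primed RUES2-GLR libraries. It was at 5.19 and 4.74 CPM in early and 103 and 108 CPM in late RA-gastruloids. The 5 groups did not overlap, although both primed lines are at or under 3 counts and do not differ beyond that limit. Against the floor of primed RUES2-GLR cells, early RA-gastruloids were at least 25.4-fold higher (edgeR's quasi-likelihood test, adjusted p = 1.18e-09, n = 2 per group), and the step to late RA-gastruloids was a log2 fold change of 4.40 ± 0.18 (SE, edgeR adjusted p = 8.05e-19). In mouse, Meis1 was at 0.837 and 0.0897 CPM in naïve ESCs, 0.296 and 0.132 CPM in EpiLCs, 0.296 and 0.440 CPM in early gastruloids, and 109 and 103 CPM in late gastruloids. The first 3 mouse groups overlapped, with 1 to 6 counts in each library, and neighbours among them in order of level did not differ beyond their spread. The log2 fold change of Meis1 from early to late mouse gastruloids was 8.21 ± 0.19 (edgeR adjusted p = 1.45e-42).

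MEIS2, a close relative of MEIS1, was the most abundant MEIS transcript per length in late gastruloids and was also present in naïve cells of both species. In human it was at 11.6 and 10.9 CPM in naïve H9 ESCs, 0.140 and 0.167 CPM in primed H9 cells, 0.737 and 0.319 CPM in primed RUES2-GLR cells, 85.3 and 81.5 CPM in early RA-gastruloids, and 267 and 266 CPM in late RA-gastruloids. No 2 of the human groups overlapped. The rise from primed RUES2-GLR cells to early RA-gastruloids was a log2 fold change of 6.99 ± 0.23 (edgeR adjusted p = 1.22e-21), and the further rise to late RA-gastruloids was 1.68 ± 0.11 (edgeR adjusted p = 2.60e-14). Without primed RUES2-GLR replicate 1, which holds 9 of the 10 counts of that group, the first of these rises was 7.91. In mouse, Meis2 was at 45.5 and 43.2 CPM in naïve ESCs, 0.591 and 2.44 CPM in EpiLCs, 5.88 and 7.21 CPM in early gastruloids, and 370 and 388 CPM in late gastruloids. Mouse naïve ESCs therefore held the second highest level, above early gastruloids. From naïve ESCs Meis2 fell by 4.56 on the log2 scale to EpiLCs (SE 0.17, edgeR adjusted p = 5.36e-32) and by 2.79 to early gastruloids (SE 0.12, edgeR adjusted p = 2.09e-28). Without EpiLC replicate 2, which holds 37 of the 41 counts of that group, Meis2 fell by 6.19 to EpiLCs. It then rose from early to late gastruloids by 5.89 ± 0.10 (edgeR adjusted p = 2.76e-49).

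MEIS3 differed from the other 2 MEIS genes in that primed human cells already expressed it. It was at 15.1 and 19.6 CPM in naïve H9 ESCs, 28.3 and 31.9 CPM in primed H9 cells, 22.1 and 21.7 CPM in primed RUES2-GLR cells, 49.6 and 47.0 CPM in early RA-gastruloids, and 106 and 80.4 CPM in late RA-gastruloids. No 2 of these groups overlapped, but naïve H9 and primed RUES2-GLR cells did not differ past the test. The log2 fold change between them was 0.34 ± 0.16 (edgeR adjusted p = 0.0563). The rise from primed RUES2-GLR cells to early RA-gastruloids was 1.14 ± 0.16 on the log2 scale (edgeR adjusted p = 3.01e-07). The step from early to late, 0.96 ± 0.13 (edgeR adjusted p = 4.29e-07), passed the threshold on p but not the threshold of 1 on the log2 fold change. In mouse, Meis3 was at 0.837 and 1.08 CPM in naïve ESCs, 1.03 and 0.263 CPM in EpiLCs, 2.72 and 3.52 CPM in early gastruloids, and 62.0 and 70.0 CPM in late gastruloids. Naïve ESCs and EpiLCs overlapped, and both lay below early and late gastruloids. The mouse step from early to late was a log2 fold change of 4.44 ± 0.15 (edgeR adjusted p = 1.53e-34).

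Levels between genes can be compared per length, as TPM within a library. Of the summed TPM of the 3 MEIS genes, MEIS3 gave 70.7% and 78.5% in naïve H9 cells, 99.6% and 99.7% in the primed H9 libraries, and 98.6% and 99.4% in primed RUES2-GLR cells. Its share was 55.8% in both early RA-gastruloid libraries and 39.4% and 32.8% in the late ones. In the early libraries 41.4% and 41.6% came from MEIS2, in the late ones 42.6% and 46.7%, and MEIS1 rose from 2.74% and 2.63% to 17.9% and 20.6%. Late mouse gastruloids had a like makeup, with 50.7% and 50.3% from Meis2, 32.2% and 34.4% from Meis3, and 17.1% and 15.3% from Meis1. The naïve groups differed, since Meis2 gave 91.7% and 91.2% in mouse naïve ESCs while MEIS2 gave 23.5% and 18.8% in naïve H9 ESCs. The 2 EpiLC libraries stood apart from each other (12.2% and 67.9% from Meis2), on 4 and 37 counts of Meis2. As a log2 ratio of TPM, MEIS2 over MEIS1 was 3.95 ± 0.04 (SD, n = 2) in early and 1.22 ± 0.05 in late RA-gastruloids, and Meis2 over Meis1 was 3.98 ± 0.19 in early and 1.64 ± 0.10 in late mouse gastruloids.

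**Figure D2:**
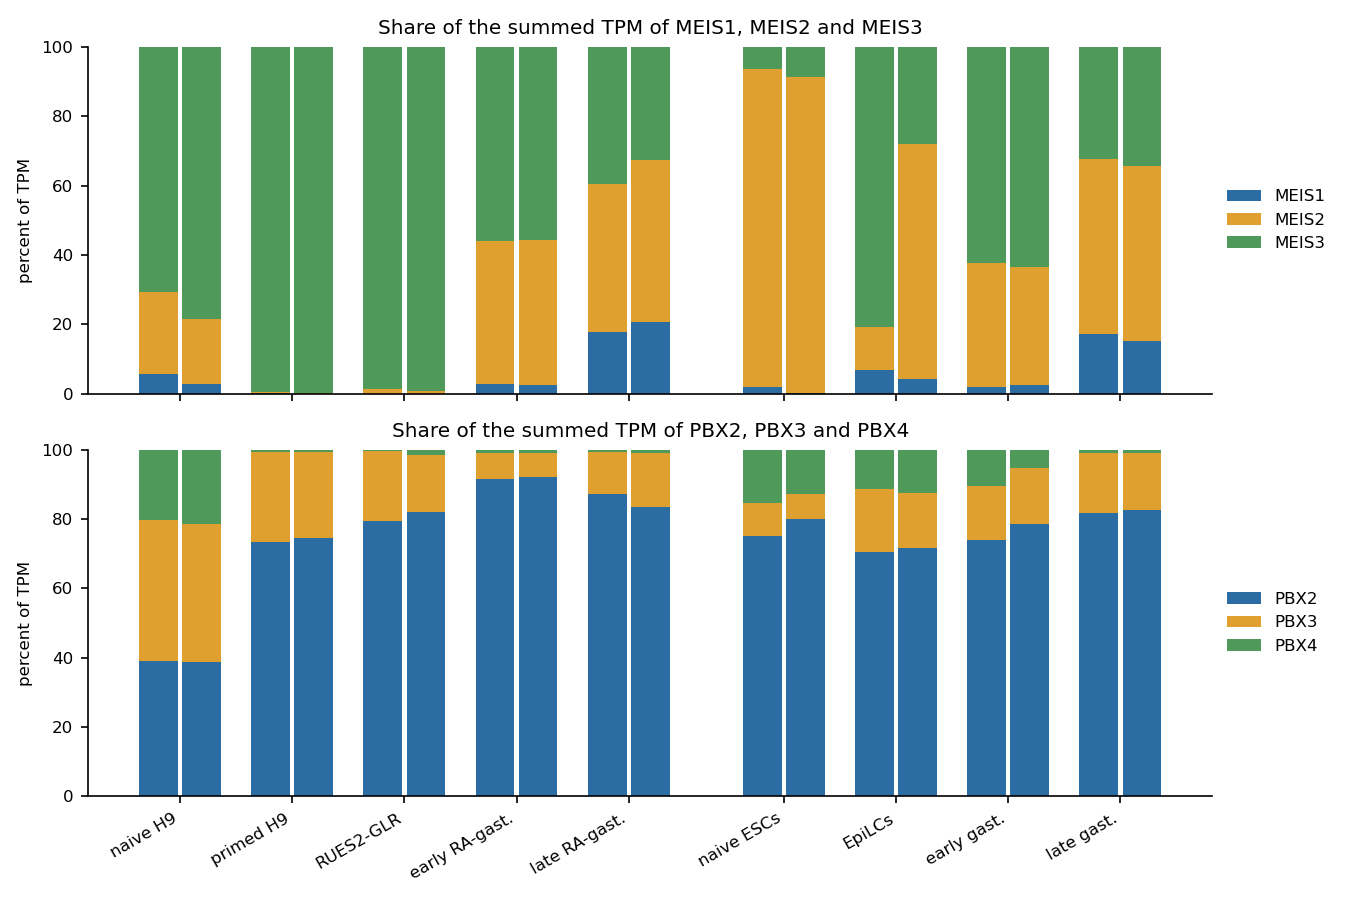
Share of each gene in the summed TPM of MEIS1, MEIS2 and MEIS3 (top) and of PBX2, PBX3 and PBX4 (bottom), in percent, with 1 bar for each replicate of the 5 human groups (left) and the 4 mouse groups (right). MEIS3 makes up over 98% of the MEIS sum in primed human cells, and PBX2 is the largest PBX part in every group but naïve H9 ESCs.

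PBX proteins bind DNA together with MEIS or HOX proteins. PBX2 was expressed in every library of both species. In human it was at 52.1 and 50.6 CPM in naïve H9 ESCs, 97.0 and 96.9 CPM in primed H9 cells, 130 and 143 CPM in primed RUES2-GLR cells, 166 and 171 CPM in early RA-gastruloids, and 179 and 148 CPM in late RA-gastruloids. Early and late RA-gastruloids overlapped (log2 fold change −0.04 ± 0.11, edgeR adjusted p = 0.802), and none of the 5 human comparisons passed both thresholds for PBX2. Mouse Pbx2 stayed between 42.8 and 68.5 CPM in naïve ESCs, EpiLCs and early gastruloids and stood at 288 and 295 CPM in late gastruloids. The mouse step from early to late was 2.49 ± 0.07 on the log2 scale (edgeR adjusted p = 1.88e-39).

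PBX3 was highest in naïve cells in human and in late gastruloids in mouse. In human it was at 60.7 and 58.8 CPM in naïve H9 ESCs, 38.6 and 36.1 CPM in primed H9 cells, 37.0 and 32.5 CPM in primed RUES2-GLR cells, 15.3 and 14.3 CPM in early RA-gastruloids, and 27.5 and 30.7 CPM in late RA-gastruloids. The primed lines overlapped, and early RA-gastruloids were the lowest group. From primed RUES2-GLR cells to early RA-gastruloids PBX3 fell by 1.26 on the log2 scale (SE 0.14, edgeR adjusted p = 8.18e-09). The step to late RA-gastruloids, 0.97 ± 0.14 (edgeR adjusted p = 5.92e-07), lay just below the fold threshold. Mouse Pbx3 was at 9.21 and 7.36 CPM in naïve ESCs, 29.1 and 25.2 CPM in EpiLCs, 18.5 and 17.7 CPM in early gastruloids, and 102 and 99.3 CPM in late gastruloids. No mouse groups overlapped, and the rise from early to late was 2.47 ± 0.09 on the log2 scale (edgeR adjusted p = 2.97e-32).

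PBX4, a family member known from the testis, was the 1 gene that did not rise towards late gastruloids in either species. In human it was at 14.4 and 15.0 CPM in naïve H9 ESCs and between 0.409 and 1.27 CPM in the other 8 human libraries. From naïve to primed H9 cells PBX4 fell by 4.68 on the log2 scale (SE 0.25, edgeR adjusted p = 5.90e-17), and no later neighbours in order of level differed beyond their spread. In mouse, Pbx4 was at 5.30 and 4.58 CPM in naïve ESCs, 6.50 and 7.30 CPM in EpiLCs, 4.45 and 2.20 CPM in early gastruloids, and 1.87 and 1.94 CPM in late gastruloids. Late gastruloids lay below every other mouse library. From EpiLCs to late gastruloids Pbx4 fell by 1.88 on the log2 scale (SE 0.31, edgeR adjusted p = 3.14e-07), while the step from early to late, −0.90 ± 0.33 (edgeR adjusted p = 0.0131), did not pass the fold threshold.

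Within the summed TPM of PBX2, PBX3 and PBX4, PBX2 gave 39.1% and 38.6% in naïve H9 cells, 73.3% and 74.5% in the primed H9 libraries, 79.3% and 82.0% in primed RUES2-GLR cells, 91.4% and 92.2% in early RA-gastruloids, and 87.3% and 83.5% in the late ones. In mouse its share was between 70.5% and 82.5% in all 8 libraries. Naïve H9 ESCs thus differed from every other group in that PBX3 (40.6% and 39.9%) and PBX2 gave nearly equal parts and PBX4 gave 20.3% and 21.5%.

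The 2 COUP-TF genes showed the largest fitted changes among the 8 genes between early and late gastruloids in both species. In mouse, however, the SE of Nr2f2 (8.37 ± 0.14) and Meis1 (8.21 ± 0.19) overlapped, so their order is not settled. NR2F1, which acts in neural and neural crest development, was at 0.679 and 0.746 CPM in naïve H9 ESCs, 0 and 0.0238 CPM in primed H9 cells, 0.0819 and 0 CPM in primed RUES2-GLR cells, and 0.192 and 0.202 CPM in early RA-gastruloids. In late RA-gastruloids it was at 219 and 193 CPM, that is, 4516 and 1895 counts against 2 and 2 in the early libraries. The log2 fold change from early to late was 9.98 ± 0.24 (edgeR adjusted p = 8.49e-25). In mouse, Nr2f1 had 1 and 1 counts in naïve ESCs, 1 and 0 in EpiLCs, and 4 and 1 in early gastruloids, and stood at 104 and 107 CPM in late gastruloids (log2 fold change from early 9.28 ± 0.20, edgeR adjusted p = 1.26e-43). In both species the late group stood clear of all others, and the primed and early groups overlapped or lay near 3 counts.

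NR2F2, which acts in mesenchyme, venous endothelium and atrial muscle, was at 21.5 and 26.8 CPM in naïve H9 ESCs, 0 in both primed H9 libraries, 1.64 and 0.637 CPM in primed RUES2-GLR cells (20 and 2 counts), 0.769 and 0.606 CPM in early RA-gastruloids, and 220 and 230 CPM in late RA-gastruloids. The RUES2-GLR cells and the early RA-gastruloids overlapped. The log2 fold change from early to late was 8.33 ± 0.22 (edgeR adjusted p = 1.71e-23). In mouse, Nr2f2 was at 0 and 0.0897 CPM in naïve ESCs, 0.444 and 0.132 CPM in EpiLCs, 0.642 and 0.528 CPM in early gastruloids, and 202 and 203 CPM in late gastruloids. The late step was 8.37 ± 0.14 on the log2 scale (edgeR adjusted p = 1.09e-48). Unlike NR2F2 in naïve H9 ESCs, Nr2f2 had 0 and 1 counts in mouse naïve ESCs. As a log2 ratio of TPM, NR2F2 over NR2F1 was −0.43 ± 0.18 (SD, n = 2) in late RA-gastruloids and Nr2f2 over Nr2f1 was 0.18 ± 0.02 in late mouse gastruloids. Taken from counts with no length, the human ratio was 0.13 ± 0.18, so which human gene is the more abundant depends on the gene lengths in the table.

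**Figure D3:**
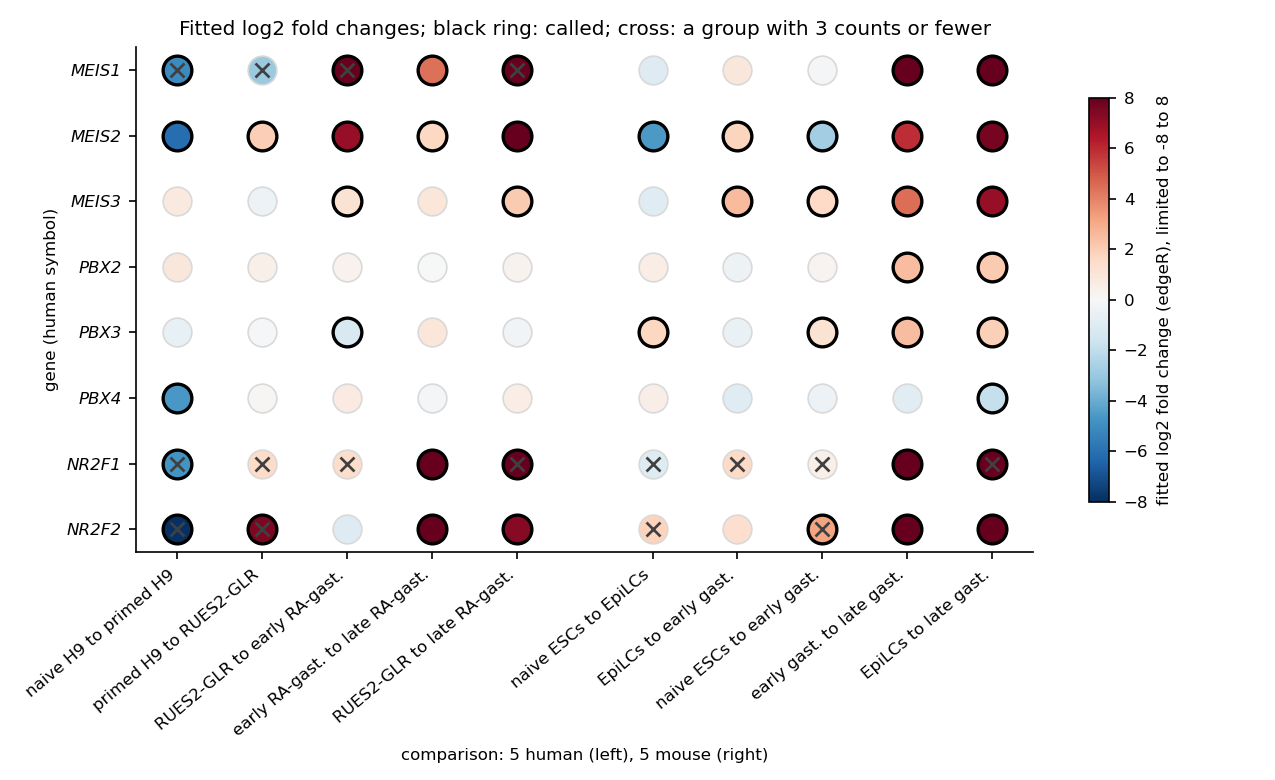
Fitted log2 fold change of each gene (rows) in the 5 human and 5 mouse comparisons (columns), coloured from −8 (blue) to 8 (red); a black ring marks an adjusted p under 0.05 with an absolute log2 fold change above 1, and a cross marks a comparison in which 1 of the groups has 3 counts or fewer, where the fitted value depends on the prior count. From early to late, 4 of the 8 human genes and 7 of the 8 mouse genes carry a ring.

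Across the comparisons, a gene was called where edgeR's adjusted p was under 0.05 and the absolute log2 fold change was above 1. From naïve to primed H9 cells, 5 of the 8 genes were called, all lower in primed cells (MEIS1, MEIS2, PBX4, NR2F1 and NR2F2), beside 47.8% of all 18300 genes tested, and 22.3% of all genes were called lower. The other 3 genes were MEIS3 (0.81 ± 0.14), PBX2 (0.92 ± 0.11) and PBX3 (−0.68 ± 0.12), each below the fold threshold. NR2F2 was at least 450-fold lower in primed than in naïve H9 ESCs, on 878 counts against 0. MEIS1 (75 counts against 3) was 38.5-fold lower, with an exact 95% counting interval of 12.7 to 191, and NR2F1 (26 against 1) was 40.01-fold lower, with an interval of 6.57 to 1641. The median log2 fold change of the 8 genes was −4.97 with these genes at their bound or counted ratio (−4.74 as fitted) and that of all genes was 0.00.

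Genes of other lists also differed between naïve and primed H9 ESCs. Of 36 HOX genes tested, 35 were lower in primed cells, and the HOX genes summed to 155 and 176 CPM in naïve against 0.0699 and 0.0477 CPM in primed H9 cells. Of 5 fibroblast markers, all 5 had counts in naïve H9 ESCs, with a sum of 678 and 658 CPM, against 267 and 276 CPM in primed H9 cells. The collagen gene COL3A1 was at 181 and 172 CPM in naïve and 0.0699 and 0.0477 CPM in primed H9 cells, and lumican (LUM) at 1.57 and 2.12 CPM against 0 in both primed libraries. COL1A1 was at 361 and 372 CPM against 136 and 138 CPM, and these 3 genes were called lower in primed cells. The other 2 markers were not called, COL1A2 at 131 and 111 CPM against 130 and 137 CPM and POSTN at 2.82 and 2.12 CPM against 1.61 and 1.12 CPM. Any link of these lists to the naïve levels of MEIS1, MEIS2, PBX4, NR2F1 and NR2F2 was not tested. COL3A1 was also at 33.7 and 39.2 CPM in early and 96.1 and 88.8 CPM in late RA-gastruloids.

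The 2 primed human lines differed in 2 of the 8 genes, beside 29.3% of all genes, both higher in RUES2-GLR ESCs. MEIS2 stood at a log2 fold change of 1.97 ± 0.60 (edgeR adjusted p = 0.00621), on 9 counts in primed H9 and 10 in primed RUES2-GLR cells, and NR2F2 was at least 26.9-fold higher, on 0 against 22 counts. The medians were 0.27 over the 6 genes above the floor and −0.12 over all genes. These calls rest on few reads. With only these 4 libraries in the fit neither gene was called, and without primed RUES2-GLR replicate 1, which holds 20 of the 22 NR2F2 counts and 9 of the 10 MEIS2 counts, only NR2F2 was.

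From primed RUES2-GLR cells to early RA-gastruloids, 3 of the 8 genes rose (MEIS1, MEIS2 and MEIS3) and PBX3 fell, beside 29.6% of all genes called. The median log2 fold change was 0.93 for the 8 genes and 0.08 for all genes. NR2F1 and NR2F2 were not called, with 1 and 22 counts before and 4 and 14 counts after. In the same comparison 29 of 36 HOX genes tested rose and none fell, and the HOX sum went from 0.246 and 0.319 CPM to 1559 and 1633 CPM. Of 18 retinoic acid genes (receptors, and genes of RA synthesis, transport and breakdown), 8 rose and 5 fell.

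Between early and late RA-gastruloids, 4 of the 8 genes rose (MEIS1, MEIS2, NR2F1 and NR2F2) and none fell, beside 24.9% of all genes called and 11.8% called higher. The median log2 fold change was 1.32, against 0.00 for all genes. Over the same step 15 of 36 HOX genes rose and 3 fell, and 6 of 18 retinoic acid genes rose and 4 fell. Of the cell type markers, 4 of 4 somite and 4 of 5 endothelial markers tested rose. The endothelial sum was 140 and 144 CPM in primed RUES2-GLR cells, 25.1 and 25.5 CPM in early and 69.4 and 57.4 CPM in late RA-gastruloids. Of 5 fibroblast markers 3 rose and 1 fell, the fibroblast sum going from 1059 and 992 CPM to 685 and 583 CPM. Among neural tube markers 3 of 5 rose and 2 fell, and among neural crest markers 3 of 5 rose and 1 fell. Of 2 cardiac markers tested none rose and 1 fell. All 5 primitive streak markers fell, and of 5 pluripotent markers 1 rose and 3 fell. The part that a change in cell types takes in the 4 rises was not tested. Across both steps, from primed RUES2-GLR cells to late RA-gastruloids, 5 of the 8 genes were called higher and none lower, beside 38.3% of all genes (17.3% higher and 21% lower). These were the 3 MEIS genes, NR2F1 and NR2F2. MEIS1 was at least 535-fold higher, NR2F1 3233-fold higher on 1 count against 6411, with an exact 95% counting interval of 580 to 127700, and NR2F2 differed by 7.30 ± 0.21 on the log2 scale (edgeR adjusted p = 9.96e-23), or by 8.37 without primed RUES2-GLR replicate 1.

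In mouse, 2 of the 8 genes were called from naïve ESCs to EpiLCs, beside 29.8% of all 15003 genes tested. Meis2 fell, as given above, and Pbx3 rose by 1.72 ± 0.14 on the log2 scale (edgeR adjusted p = 6.92e-17). The median log2 fold change was −0.21 over the 8 genes as fitted and 0.52 over the 7 genes left without Nr2f1, which had 3 counts or fewer in both groups, and that of all genes was 0.02. From EpiLCs to early gastruloids Meis2 (1.77 ± 0.23, edgeR adjusted p = 1.73e-09) and Meis3 (2.56 ± 0.40, edgeR adjusted p = 1.29e-07) rose, beside 20.9% of all genes called (11.7% higher and 9.24% lower). Without EpiLC replicate 2 these changes were 3.40 for Meis2 and 1.53 for Meis3, and without EpiLC replicate 1 that of Meis3 was 3.46. Pbx4 was called lower as well without early gastruloid replicate 1 (−1.67) or EpiLC replicate 1 (−1.04), and Nr2f2 was called higher without the latter (2.10). Counted from the naïve ESCs that the gastruloids were made from, Meis3, Pbx3 and Nr2f2 were higher and Meis2 was lower in early gastruloids, beside 23% of all genes called (16.2% higher and 6.81% lower). Nr2f2 was 11-fold higher on 1 count against 19, with an exact 95% counting interval of 1.75 to 457. These 2 comparisons share the early gastruloids.

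Between early and late mouse gastruloids 7 of the 8 genes rose and none fell, beside 39.2% of all genes called and 20.1% called higher. The median log2 fold change was 5.17, against −0.03 for all genes. Alongside, 27 of 30 HOX genes tested rose and 1 fell, 11 of 16 retinoic acid genes rose and 2 fell, and all 5 fibroblast markers rose, from sums of 2.37 and 2.90 CPM to 487 and 529 CPM. Of the other cell type markers tested, 3 of 4 somite and 3 of 5 endothelial markers rose and 1 of each fell. Among cardiac markers 4 of 5 rose, among neural tube markers 3 of 5 rose, and none of either fell. Of 3 neural crest markers 1 rose and 1 fell, while 4 of 4 pluripotent and 2 of 3 primitive streak markers fell. The part that a change in cell types takes in these rises was not tested. From EpiLCs to late gastruloids, the same 7 genes were called higher and Pbx4 lower, beside 41.7% of all genes.

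**Figure D4:**
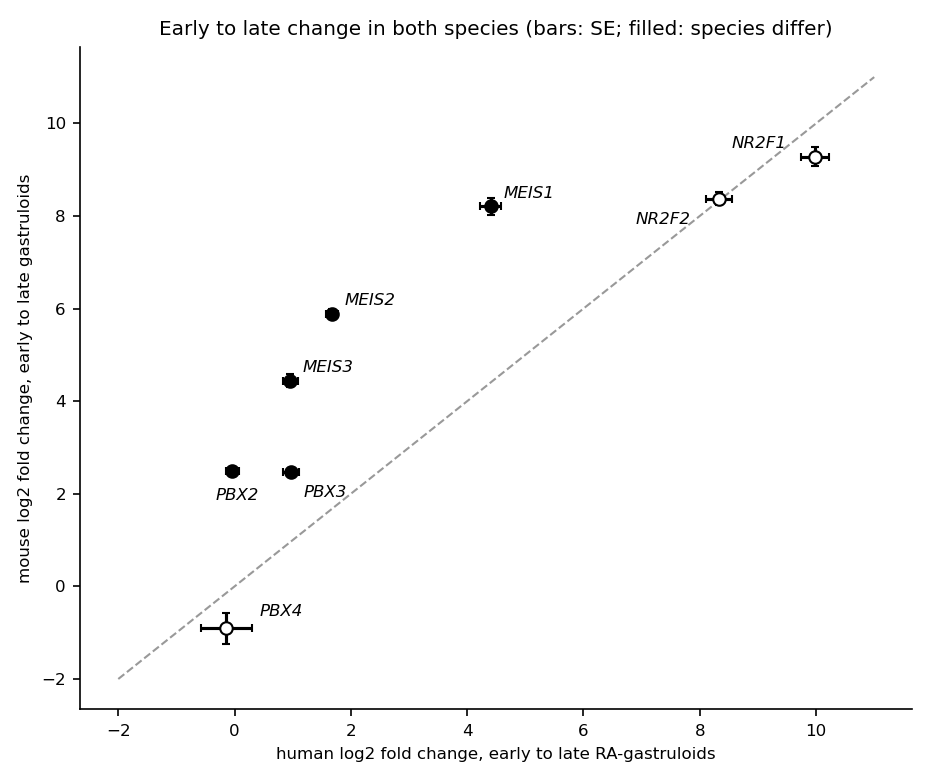
Log2 fold change from early to late gastruloids in human (x axis) and mouse (y axis) for the 8 genes, each with its SE as bars; the dashed line marks equal changes, and filled points are genes whose change differed between the species by the interaction test. NR2F1 and NR2F2 lie between 8.33 and 9.98 on both axes, while the 3 MEIS genes, PBX2 and PBX3 lie above it.

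Whether the steps differed between species was tested as an interaction over 14007 genes matched by symbol. From early to late, 5 of the 8 genes differed, beside 35.4% of all genes, and all 5 had the lower change in human, beside 18.7% of all genes with the lower and 16.7% with the higher change there. The human minus mouse difference of log2 fold changes was −3.66 ± 0.42 for MEIS1 (edgeR adjusted p = 3.25e-09), −4.05 ± 0.17 for MEIS2 (7.31e-21), −3.33 ± 0.22 for MEIS3 (3.40e-15), −2.38 ± 0.13 for PBX2 (7.27e-18) and −1.36 ± 0.17 for PBX3 (1.85e-08). Set side by side, though the tables of the species were normalised separately, MEIS1 was at 103 to 109 CPM in late gastruloids of both species, and at 4.74 to 5.19 CPM in early human and 0.296 to 0.440 CPM in early mouse gastruloids. NR2F1 (0.82 ± 0.91, edgeR adjusted p = 0.475) and NR2F2 (0.11 ± 0.55, edgeR adjusted p = 0.907) did not pass the test, which does not show that their changes were equal.

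From the primed stage to early gastruloids, 5 of the 8 genes differed between species, beside 32.6% of all genes (12.9% with the higher and 19.7% with the lower change in human). The rise of MEIS2 was larger in human, by 5.09 ± 0.48 on the log2 scale (edgeR adjusted p = 2.76e-11), and MEIS1 also differed (edgeR adjusted p = 0.0016), with 101 counts in early RA-gastruloids after 0 in primed RUES2-GLR cells, and 11 counts after 4 in mouse. MEIS3 (−1.53 ± 0.48, edgeR adjusted p = 0.00647) and NR2F2 (−2.50 ± 0.82, edgeR adjusted p = 0.00937) had the lower change in human, and PBX4 differed by 1.6 ± 0.67 (edgeR adjusted p = 0.0417). Single libraries decide these last 3 calls: without EpiLC replicate 2 the difference was −0.56 for MEIS3 and −1.62 for NR2F2, without primed RUES2-GLR replicate 1 it was −1.37 for NR2F2 and 0.48 for PBX4, and none of these passed. MEIS2 remained past the test in both cases, at 3.42 and 6.08. With mouse naïve ESCs, from which the gastruloids were made, as the mouse start, the difference for MEIS2 grew to 9.63 ± 0.29 and that for PBX3 to −2.56 ± 0.20 (edgeR adjusted p = 2.32e-13), while MEIS3 (−0.62 ± 0.43) and PBX4 (1.04 ± 0.68) no longer passed. MEIS1 (edgeR adjusted p = 5.45e-05) and NR2F2 (−4.43 ± 1.07, edgeR adjusted p = 0.000635) passed from this start, Nr2f2 on 1 count in mouse naïve ESCs. Libraries were not left out in turn with this start. Human and mouse samples differ in line, RA treatment, Matrigel and time points as well as in species, and these cannot be told apart.

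Over all 18 samples, with log2 CPM centred within each species, the 8 genes were compared with each other as a description. The 2 samples of a stage share their batch. The highest Pearson r were those of MEIS1 with NR2F1 (0.935), NR2F1 with NR2F2 (0.929), MEIS1 with MEIS2 (0.892) and MEIS1 with NR2F2 (0.872). PBX4 had negative values with PBX2 (−0.615) and MEIS3 (−0.464). Among genes with a group mean of at least 10 CPM in each species, the pattern of MEIS1 was most like that of COLEC12 (0.978), FOXD1 and ANAPC13, and that of MEIS2 most like ZBTB1 (0.95), TSHZ1 and HOXB4. For MEIS3 these genes were ZFTA (0.956), RBMX and MN1. For PBX2 they were SAMD14 (0.986), COL4A2 and FREM1, for PBX3 ST6GAL1 (0.968), FHDC1 and SH3BP2, and for PBX4 ASH2L (0.95), SLC25A16 and CSTF2. The pattern of NR2F1 was most like FOXD2 (0.991), the somite gene MEOX1 (0.969) and PCDH17, and that of NR2F2 most like MXRA8 (0.947), the retinoic acid receptor gene RARB (0.939) and MAN1A2.

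The promoters of the human genes were searched for the letters of 3 motifs, on both strands, in the 250 bases before each start in the RefSeq table (GRCh38.p14), which held 12 windows for the 8 genes. Some of these starts lie inside a gene, so a window can hold intron or coding bases. A window of NR2F2 (chr15:96332315-96332564) holds the 131 coding bases shown above. TGATNNAT, the form of a HOX and PBX site, occurred in 6.47% of all 35116 windows, TGACAG, the form of a MEIS site, in 13%, and AGGTCA, the nuclear receptor half-site, in 12.1%. Among the 12 windows, 1 of the 2 of MEIS2 held TGATNNAT and the window of PBX3 held TGACAG. For either motif, 1 match in 12 windows is near the share of all windows and is not a trait of the 8 genes. The MEIS2 match, which began 64 bases before the start, is shown in capitals with 30 bases on either side. The stretch shown lies at chr15:37098723-37098790 on the minus strand, between exons 1 and 2 of the canonical MEIS2 transcript. The start it precedes is therefore inside the gene.
MEIS2: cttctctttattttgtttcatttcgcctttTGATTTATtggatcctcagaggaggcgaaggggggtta
A match of letters is a description and not evidence that a protein binds there.

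A further 11 genes of the PKNOX, TGIF, NR2F and IRX families, with TALE or COUP-TF-like proteins, were counted in the same comparisons. From naïve to primed H9 cells 2 of the 11 rose and 6 fell, beside 25.5% of all genes called higher and 22.3% called lower. From primed RUES2-GLR cells to early RA-gastruloids 1 rose and 5 fell, beside 12% called higher and 17.6% called lower. From early to late RA-gastruloids 4 rose and 1 fell, beside 11.8% called higher and 13.2% called lower. In mouse 6 of the 9 tested rose from early to late and none fell, beside 20.1% called higher and 19.1% called lower. Their median log2 fold change over the late step was 0.59 in human and 2.28 in mouse, beside 1.32 and 5.17 for the 8 genes.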

How the data were processed

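RNA-seq of 18 samples was used. The authors deposited 1 table per species of whole-number read counts per gene, not normalized. Per the study's methods, reads were trimmed with Trimmomatic 0.39, mapped to GRCh38 or GRCm39 by STAR and assigned to genes by featureCounts under default parameters, which count without strand and leave out reads that map to several places, and libraries had either of 2 read lengths; the annotation release is not given in the sources used here. Identifiers were named from GENCODE 44 (44876 of 44910 found) and M39 (29486 of 29720 found). Members and lists were chosen with earlier results of these data known.

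Counts were scaled by TMM, filtered by filterByExpr (18300 human and 15003 mouse genes kept) and fitted once per species for edgeR's quasi-likelihood test, while differences between species came from a joint fit of the 18 samples over 14007 genes matched by symbol. Adjusted p-values are Benjamini-Hochberg over all genes tested. A gene was called at an adjusted p below 0.05 if its log2 fold change exceeded 1 in size. Folds against a group at 0 use a floor of 3 counts over its 2 libraries, and groups of 1 to 3 counts have exact binomial intervals (95%). TPM used the gene lengths of the tables and was compared within libraries only. Correlations were taken on log2 CPM (prior count 2). Named are the 8 genes, and for each the 3 genes of most similar pattern. All other lists are given by counts, or by levels where a result turns on a gene. 1 gene that the rule for relatives matches is not reported here. Tests were checked on simulated data. Tests were run in R 4.3.3 (edgeR 4.0.16, limma 3.58.1, DESeq2 1.42.0), and levels, sequences and figures in Python 3.11.15 (scipy 1.17.1, pandas 2.3.3, matplotlib 3.10.9, numpy 2.4.6).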

Additional observations from a re-analysis of the deposited data

Results flagged for a closer look

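Between the primed stage and early gastruloids, the change of 5 of the 8 genes differed between human and mouse by the test of the difference itself (edgeR's quasi-likelihood test, interaction of species and step). Of all 14007 genes tested, 32.6% were called in the same way. The human minus mouse log2 fold change was 5.09 for MEIS2, −1.53 for MEIS3, 1.6 for PBX4 and −2.50 for NR2F2, and MEIS1 had an edgeR adjusted p of 0.0016, with no value given since primed RUES2-GLR cells held no count. The calls of MEIS3, PBX4 and NR2F2 depend on single libraries. MEIS3 was not called without EpiLC replicate 2 (−0.56, edgeR adjusted p = 0.454) or with naïve ESCs as the mouse start (−0.62, edgeR adjusted p = 0.217). NR2F2 was not called without primed RUES2-GLR replicate 1 (−1.37), EpiLC replicate 2 (−1.62) or early mouse gastruloid replicate 1 (−2.29). With naïve ESCs as the mouse start and all libraries kept it was called (−4.43, edgeR adjusted p = 0.000635), on 1 count of Nr2f2 in those cells. For PBX4, DESeq2 gave an adjusted p of 0.0515, and the call was lost without primed RUES2-GLR replicate 1, either early RA-gastruloid replicate, EpiLC replicate 2 or early mouse gastruloid replicate 2.

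From early to late gastruloids, the human minus mouse log2 fold change was −3.66 for MEIS1, −4.05 for MEIS2, −3.33 for MEIS3, −2.38 for PBX2 and −1.36 for PBX3, each past the same test. Of all 14007 genes tested, 35.4% were called over this step. Species, cell line, RA treatment and time points cannot be told apart in either set.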

How the results depend on the processing

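Of 147 counts of called genes under other settings, 129 stayed within 1.5 times the value reported. Single genes were followed only in comparisons where at least 1 fit called them. Of their 666 values, 630 kept their direction and their side of the threshold. With at least 10 counts asked of each sample, which leaves fewer of the 8 genes to test, the calls were 0 from naïve to primed H9 cells, 0 between the primed lines, 1 from primed RUES2-GLR cells to early RA-gastruloids, 0 between early and late RA-gastruloids, and 1 over both of these steps. In mouse they were 1 from naïve ESCs to EpiLCs, 0 from EpiLCs to early, 1 from naïve ESCs to early, 2 from early to late and 3 from EpiLCs to late gastruloids. With the adjusted p alone, 8 genes were called from naïve to primed H9 cells, 4 between the primed lines and 5 from EpiLCs to early gastruloids. The share of all genes called on the adjusted p alone was not taken, so these counts cannot be set beside it. With only the compared groups in the fit, 0 were called between the primed lines.

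Leaving out 1 replicate at a time, the calls between the primed lines ranged from 1 (without RUES2-GLR replicate 1) to 2, those from EpiLCs to early gastruloids from 2 to 4 (without EpiLC replicate 1), and the differences between species from primed to early from 2 (without EpiLC replicate 2; 3 without RUES2-GLR replicate 1) to 5. NR2F2 from primed RUES2-GLR cells to early RA-gastruloids ranged from −1.28 to 0.026 (without RUES2-GLR replicate 1), Meis1 from naïve ESCs to EpiLCs from −2.13 to 0.94 (without naïve replicate 1), and Meis3 over that step from −1.85 to 0.075 (without EpiLC replicate 2). From counts with no length, the log2 ratio of NR2F2 over NR2F1 turned to 0.13 in late RA-gastruloids.

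Replicate numbers are shared between groups, but samples of the same number did not deviate together (correlations from −0.112 to 0.0684), so the numbers do not pair them. With the replicate number as a block, 5, 2, 4, 4 and 5 genes were called in the 5 human comparisons in the order above. In mouse 2, 3, 4, 7 and 8 were called under the block. The 1 call that the block added was Pbx4 from EpiLCs to early gastruloids. Depth limits MEIS1, MEIS2, PBX4, NR2F1 and NR2F2 in primed human cells, where single libraries hold 0 to 24 counts.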

Other observations

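Genes of retinoic acid metabolism and response were not described one by one above. ALDH1A2, which makes RA, was at 4.42 and 3.82 CPM in primed RUES2-GLR ESCs, 35.9 and 35.3 CPM in early and 116 and 118 CPM in late RA-gastruloids, and in mouse Aldh1a2 was at 13.7 and 13.2 CPM in naïve ESCs, 0.739 and 0.790 CPM in EpiLCs, 3.51 and 4.84 CPM in early and 152 and 139 CPM in late gastruloids, to which no RA was added. CYP26A1, which breaks RA down, was at 5.73 and 5.89 CPM in primed H9 ESCs but 215 and 262 CPM in primed RUES2-GLR ESCs, at 12.6 and 11.6 CPM in early RA-gastruloids, and at 41.9 and 24.7 CPM in late ones. RARB, an RA receptor gene, was at 2.40 and 2.52 CPM in early and 26.4 and 27.4 CPM in late RA-gastruloids, and Rarb had no count in early and 17.2 and 17.7 CPM in late mouse gastruloids. These genes were picked from the retinoic acid list after their values were seen, and others of the list went the other way. RARG was at 127.9 and 121.5 CPM in early and 37.1 and 28.6 CPM in late RA-gastruloids. Rarg was at 122 and 127 CPM in early and 33.4 and 30.5 CPM in late mouse gastruloids. From early to late, 6 of the 18 human genes rose and 4 fell, and 11 of the 16 mouse genes tested rose and 2 fell.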
